A study of Mus musculus with 2 samples.

Results

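The PDGF ligands Pdgfa, Pdgfb, Pdgfc and Pdgfd and the PDGF receptors Pdgfra and Pdgfrb were followed across the cell types of the newborn mouse lung. They are 6 of the 27254 genes listed in the deposited counts, and all 6 had counts in both batches. They were chosen by name, though with earlier results of these data known. Cells dissociated from the whole lungs of C57BL/6J wild-type female mice at postnatal day 1 were captured in droplets by Drop-seq, which tags the transcripts of a cell with a shared barcode and each molecule with its own identifier (UMI). Batch 1 and Batch 2 hold 1 mouse each, share this genotype and age, and were not treated, so that no condition was compared and the question is which cells hold the ligands and which the receptors. The batches are the only replicates, and a dissociated lung yields cell types in proportions that need not be those of the tissue.

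Platelet-derived growth factors are secreted dimers that bind receptor tyrosine kinases on neighbouring cells, mainly cells of mesenchymal origin. PDGF-A acts through the alpha receptor, while PDGF-B acts through both receptors. PDGF-C and PDGF-D are secreted in a latent form whose CUB domain has to be cleaved off before they bind. In the developing lung, signalling from epithelial PDGF-A to alveolar myofibroblasts is known for its part in the formation of secondary septa, and endothelial PDGF-B is known for the recruitment of pericytes to new capillaries.

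After cells with over 10% mitochondrial UMIs were removed, 2388 cells with 4432553 UMIs remained in Batch 1 and 5615 cells with 18232639 UMIs in Batch 2, with medians of 1387 and 2014 UMIs per cell and no shared barcode. Clusters were formed without the 6 members and named from marker genes, which gave 23 named classes with at least 10 cells in each batch (7662 of the 8003 cells). A name ending in "-like" rests on those markers alone, and some classes were less clear than their names. The AT1-like class was highest in both batches for all 8 of its markers, the pericyte-like class for 7 of 8, but the vascular mural-like class for 2 of 8. Other compared classes were weak as well, with 2 of 7 for capillary-like, 2 of 5 for venous-like and 3 of 8 for MatrixFB-2-like cells. AT2-like cells were highest for 4 of 8 and aerocyte-like cells for 4 of 7. By the authors' types, carried over by a multinomial model, 598 AT2-like cells were AT2 and 321 AT1/AT2. The MyoFB markers summed to 133 and 144 UMIs per 10000 in the smooth muscle-like class of Batch 1 and Batch 2, above the 76.1 and 90.5 of the MyoFB-like class itself. In the 23 vascular mural-like cells of Batch 1 the MatrixFB-1 markers summed to 20.4 UMIs per 10000, against 4.29 in the 85 cells of Batch 2. Levels below are UMIs of the gene per 10000 UMIs of the class, with an exact Poisson 95% interval that covers counting error only. In class sums, fewer expressing cells and less RNA per cell cannot be told apart.

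The members lie apart in the genome. In the GENCODE annotation of GRCm38, the build of the authors' alignment, Pdgfa (ENSMUSG00000025856.15) spans chr5:138976014-138997370 on the minus strand, Pdgfb (ENSMUSG00000000489.7) chr15:79995874-80014977 on the minus strand, Pdgfc (ENSMUSG00000028019.9) chr3:81036416-81214040 on the plus strand, Pdgfd (ENSMUSG00000032006.15) chr9:6168584-6378850 on the plus strand and Pdgfra (ENSMUSG00000029231.15) chr5:75152292-75198215 on the plus strand. Pdgfrb is ENSMUSG00000024620.11. All 6 are annotated as protein-coding, and the counts are tags over exons, mostly from the 3′ end, which do not tell isoforms apart.

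The stretches before a start site of the epithelial ligand, of the fibroblast receptor and of the endothelial ligand Pdgfd are shown, 5′ to 3′ on the strand of the gene, to let the reader compare the promoters of 3 genes held by different tissues (RefSeq, GRCm38.p6). Capitals mark CG dinucleotides and the letters TATAAA, wherever they lie in the stretch. The Pdgfa stretch ends just before the first exon of an annotated transcript. Other annotated Pdgfa transcripts start farther upstream, so that the stretch lies within their introns.
Pdgfa, chr5:138995038-138995194, minus strand: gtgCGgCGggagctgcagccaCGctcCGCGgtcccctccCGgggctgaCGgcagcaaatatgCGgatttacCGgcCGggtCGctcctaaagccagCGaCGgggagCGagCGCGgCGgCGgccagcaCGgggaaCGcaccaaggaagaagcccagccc
Pdgfra, chr5:75152001-75152250, plus strand: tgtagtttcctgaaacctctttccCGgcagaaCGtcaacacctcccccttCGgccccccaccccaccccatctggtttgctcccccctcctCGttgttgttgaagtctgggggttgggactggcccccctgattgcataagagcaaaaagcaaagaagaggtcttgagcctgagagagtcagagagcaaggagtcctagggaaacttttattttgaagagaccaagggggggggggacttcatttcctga
Pdgfd, chr9:6168236-6168485, plus strand: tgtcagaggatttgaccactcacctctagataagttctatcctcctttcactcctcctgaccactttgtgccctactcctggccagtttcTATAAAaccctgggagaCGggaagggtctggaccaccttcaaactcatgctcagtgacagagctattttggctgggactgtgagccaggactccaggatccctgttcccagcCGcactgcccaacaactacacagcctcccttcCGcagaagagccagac

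The Pdgfa stretch held 20 CG dinucleotides in 157 bases and was 72.0% G or C. The Pdgfra stretch held 4 in 250 bases at 54.4%, and the Pdgfd stretch 3 in 250 bases at 53.6%, close to the median of 52.4% over all 32851 promoter windows of 250 bases. The letters TATAAA, searched on both strands, occurred in 12.4% of those windows, and of the members with a window (Pdgfa, Pdgfc, Pdgfd and Pdgfra) the Pdgfd window alone held them. A GC box, GGGCGG on either strand, occurred in 32.7% of all windows. It was found in the windows of both Pdgfa starts, outside the stretch shown, and in none of the other members' windows. A match describes the letters and not a bound factor.

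Pdgfa was mainly an epithelial transcript. Of its UMIs, 304 of 481 in Batch 1 (63.2%) and 1365 of 1620 in Batch 2 (84.3%) came from epithelial cells, against 16.2% and 10.4% from mesenchymal and 3.12% and 3.09% from endothelial cells. The summed epithelial level was 3.29 UMIs per 10000 in Batch 1 and 1.68 in Batch 2, and the mesenchymal level 0.445 and 0.458, so that both epithelial values lay above both mesenchymal values. In edgeR's quasi-likelihood test on sums by major cell type and batch, Pdgfa was higher in epithelial than in mesenchymal cells by 2.57 on the log2 scale (SE 0.28, adjusted p = 5.53e-05), and lower in endothelial than in mesenchymal cells (log2 difference -1.91, SE 0.32, adjusted p = 0.00119). Another 15.0% of the Pdgfa UMIs of Batch 1 came from 74 cells of no clear type. Of these, 30 lay in a cluster whose leading genes joined AT1 genes (Ager, Hopx, Rtkn2) with endothelial genes (Kdr, Cldn5). The part of that cluster in the Pdgfa shares was not tested.

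Within the epithelium, AT1-like cells, the thin cells of gas exchange, held the most Pdgfa under the cluster names, with 7.27 UMIs per 10000 in Batch 1 (95% interval 6.06 to 8.64, 128 UMIs) and 3.24 in Batch 2 (2.88 to 3.63, 294 UMIs). AT2-like cells, the source of surfactant, stood at 1.18 (0.897 to 1.53) and 1.13 (1.03 to 1.24). Neither AT1-like value overlapped with AT2-like cells, while the AT1-like level itself differed by more than its counting error between the mice. The edgeR difference was 1.79 on the log2 scale (SE 0.40, adjusted p = 0.00151). Without the batch term the adjusted p of this difference was 0.068.

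Alveolar cells that carried AT1 and AT2 markers together held 5.03 and 1.78 UMIs of Pdgfa per 10000 in Batch 1 and Batch 2, between the other alveolar classes in each mouse. Ciliated-like cells held 5.64 and 2.27, but only 12 and 65 such cells were present, and the class carried some club cell genes. Club-like cells had 0.635 and 0.625. The ranges of AT1-like, ciliated-like and mixed alveolar cells over the batches overlapped. With names from a multinomial model the order of the first 2 turned, with 7.36 and 3.83 in ciliated-like cells (8 and 39 cells) and 7.23 and 3.18 in AT1-like cells.

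Pdgfa was detected in 71.6% of AT1-like cells of Batch 1 (exact binomial 95% interval 59.9 to 81.5) and in 48.5% of those of Batch 2 (42.6 to 54.3), at median depths of 1874 and 2046 UMIs. In Batch 2 it was found in 81.5% of ciliated-like cells, whose median depth was 11959 UMIs. Depth and detection moved together, and when each cell was thinned to 600 UMIs (no cell was shallower) these shares became 37.8% and 18.4% for AT1-like cells and 12.3% for ciliated-like cells of Batch 2. Capillary-like cells, taken as the background, had the gene in 1.40% and 1.63% of cells at median depths of 1210 and 1804 UMIs.

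Outside the epithelium, Pdgfa was present in mural and mesothelial cells. Mesothelial-like cells, which cover the lung surface, held 2.73 and 1.78 UMIs per 10000 from 11 and 8 UMIs. Pericyte-like cells held 2.02 (1.13 to 3.32) and 0.678 (0.408 to 1.06), and vascular mural-like cells 1.53 and 1.39. MatrixFB-1-like fibroblasts, the most numerous class, held 0.301 and 0.405. The pericyte-like values lay above both fibroblast values, but the edgeR difference of 1.31 (SE 0.50) had an adjusted p of 0.0904 (0.037 with RLE size factors). MyoFB-like cells had 1 and 2 UMIs of Pdgfa, or 0.0990 and 0.0655 per 10000, and the ratio of MatrixFB-1-like to MyoFB-like levels over both batches was 5.0 with a counting interval of 1.67 to 24.6 (adjusted p = 0.0606 in edgeR).

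**Figure D1:**
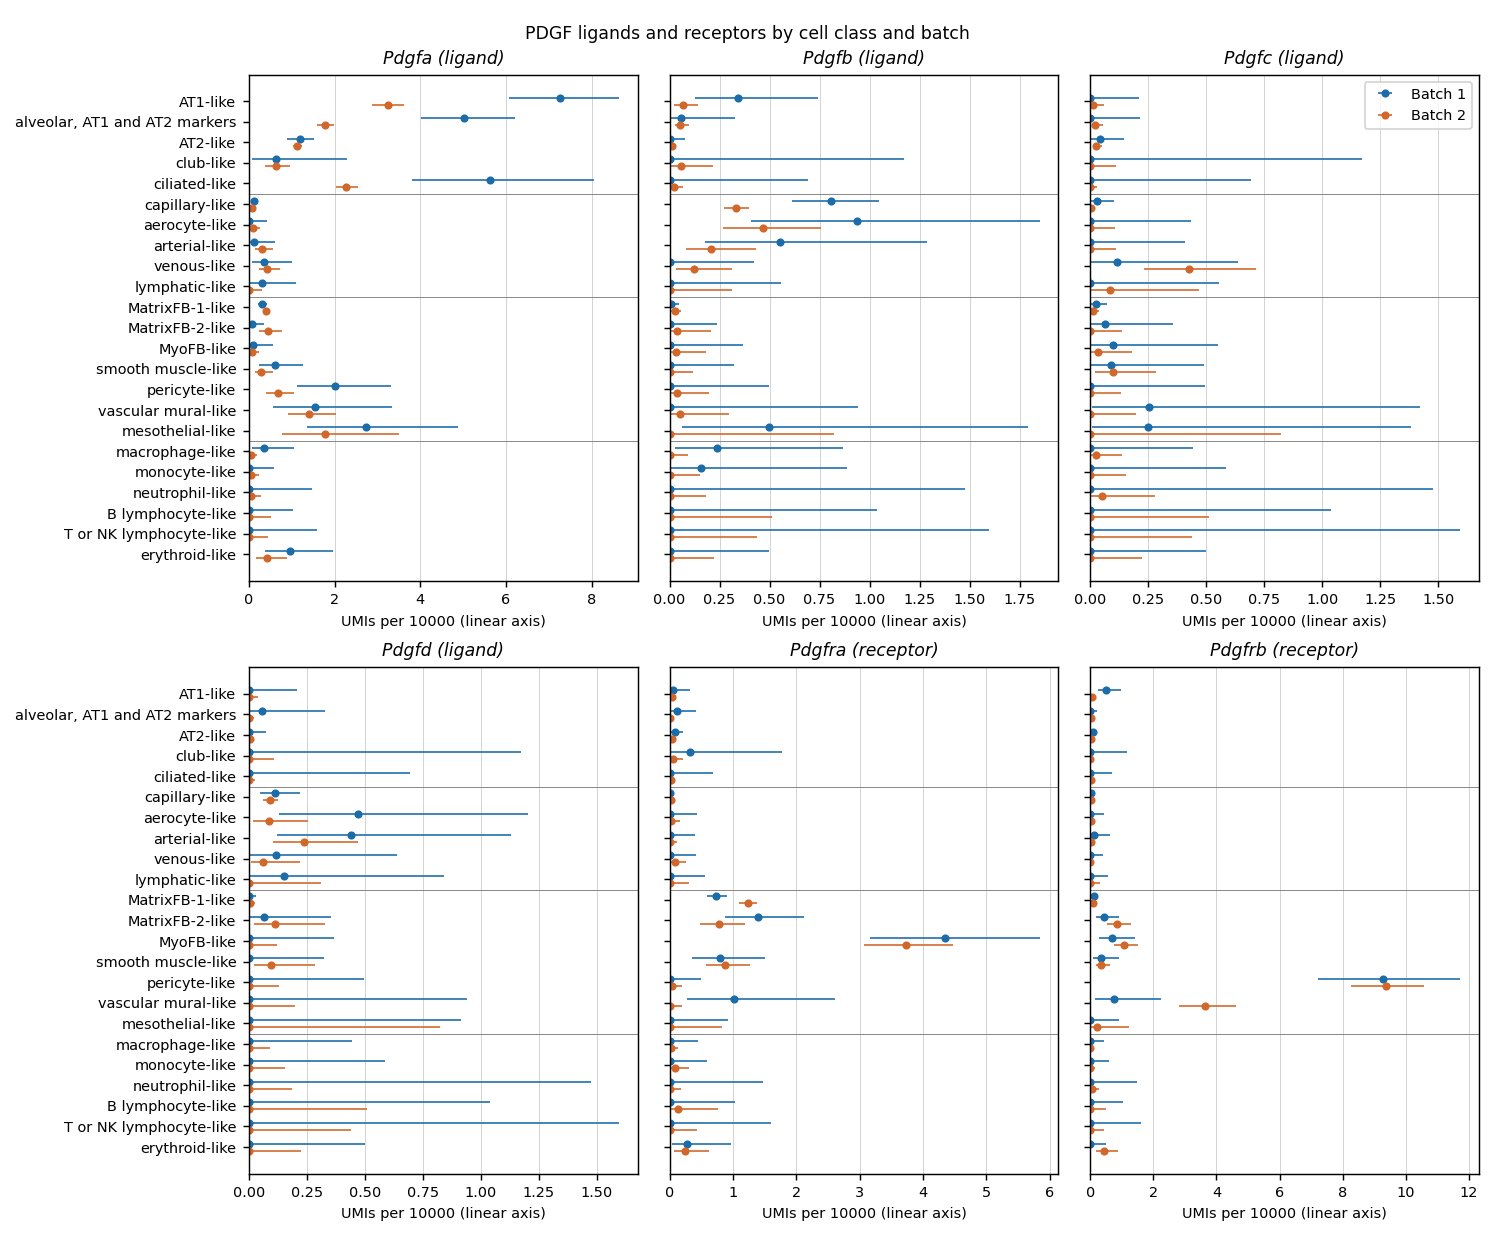
Level of each gene (x axis, UMIs per 10000 UMIs of the class, linear, scaled per gene) in 23 named cell classes (y axis) of Batch 1 (blue) and Batch 2 (orange). Points are class sums and bars the Poisson 95% interval; Pdgfrb peaks in pericyte-like cells at 9.27 and 9.38, Pdgfra in MyoFB-like cells at 4.36 and 3.73, and Pdgfa in AT1-like cells at 7.27 and 3.24.

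Pdgfb was held mainly by blood endothelium. Endothelial cells gave 73 of 101 UMIs in Batch 1 (72.3%) and 142 of 196 in Batch 2 (72.4%), and their level was 0.660 and 0.3003 UMIs per 10000, against 0.0171 and 0.0271 in mesenchymal cells. The difference in edgeR was 4.11 on the log2 scale (SE 0.44, adjusted p = 6.03e-05), and both endothelial values lay above both mesenchymal values.

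Among endothelial classes, aerocyte-like cells, the large capillary cells beside the airspace, held 0.940 (0.406 to 1.85, 8 UMIs) and 0.466 (0.267 to 0.757, 16 UMIs) of Pdgfb per 10000. Capillary-like cells held 0.809 (0.615 to 1.05) and 0.332 (0.273 to 0.400), and arterial-like cells 0.552 and 0.210. Counting intervals of these neighbours overlapped in both batches, so no order among them was resolved. Venous-like cells had 0 UMIs in Batch 1, where 3 UMIs would be 0.344 per 10000, and 0.122 in Batch 2. Lymphatic-like cells had 0 UMIs of Pdgfb in both batches, with limits of 0.453 and 0.253. Arterial-like and capillary-like cells did not differ past the threshold in edgeR (log2 difference -0.84, 95% interval -2.39 to 0.72, adjusted p = 0.924).

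Pdgfb was detected in 14.9% of aerocyte-like cells of Batch 1 and 9.40% of those of Batch 2, and in 11.9% and 8.06% of capillary-like cells. MatrixFB-1-like cells, at median depths of 1304 and 1704 UMIs against 1221 and 1654 for aerocyte-like cells, had it in 0.120% and 0.410%. AT1-like cells held 6 UMIs in each batch, or 0.341 and 0.0661 per 10000, and AT2-like cells 0 and 5 UMIs. That difference in edgeR, 3.00 (SE 1.00), had an adjusted p of 0.0552 (0.045 with RLE size factors). In Batch 2 a small unnamed cluster with basophil and megakaryocyte genes had 8 UMIs of Pdgfb in 2 of 15 cells, a level of 1.42 per 10000, and 0 UMIs in the 7 cells of Batch 1.

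Pdgfd was a sparse transcript of the same tissue. Endothelial cells gave 18 of its 21 UMIs in Batch 1 and 44 of 53 in Batch 2 (85.7% and 83.0%). Their level was 0.163 and 0.0931 UMIs per 10000, while mesenchymal cells had 1 and 7 UMIs, or 0.00570 and 0.0190. The edgeR difference was 2.99 (SE 0.74, adjusted p = 0.0139), but DESeq2 gave an adjusted p of 0.053. Arterial-like cells held 0.442 (4 UMIs) and 0.239 (8 UMIs), aerocyte-like cells 0.470 and 0.0874, and capillary-like cells 0.112 and 0.0889. The arterial-like values lay above the capillary-like values in each batch. Pdgfd was too low for the test between classes, and the counting intervals overlapped in both batches. It was detected in 8.33% and 7.22% of arterial-like cells, at median depths of 1862 and 2151 UMIs, against 0 of 836 and 1 of 1220 MatrixFB-1-like cells.

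Pdgfc had 14 UMIs in Batch 1 and 42 in Batch 2 and passed the filter on low counts in no fit. Venous-like cells held 1 UMI (0.115 per 10000, 0.00290 to 0.638) in Batch 1 and 14 UMIs (0.427, 0.233 to 0.716) in 9 of 54 cells in Batch 2, which are 7.14% and 33.3% of the UMIs of their batch. No tissue led in both batches, since mesenchymal cells gave 57.1% of the Pdgfc UMIs in Batch 1 and 16.7% in Batch 2, epithelial cells 14.3% and 35.7%, and endothelial cells 21.4% and 38.1%. The interval of Batch 1 takes in the level of Batch 2, and no venous-like cell kept a UMI of the gene after thinning to 600 UMIs. AT2-like cells held 2 and 10 UMIs, or 0.0407 and 0.0268 per 10000. Pdgfc was at 0 in both batches in 9 of the 23 classes, and the correlation of its class levels between the batches was low (Spearman's rho 0.262 over 23 classes).

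The receptors were mesenchymal. Mesenchymal cells gave 92.4% of the 184 Pdgfra UMIs of Batch 1 and 88.0% of the 507 of Batch 2, and 82.0% of the 128 Pdgfrb UMIs of Batch 1 and 89.5% of the 466 of Batch 2. Pdgfra stood at 0.969 and 1.21 UMIs per 10000 in mesenchymal cells, at 0.0867 and 0.0332 in epithelial cells and at 0.00904 and 0.0338 in endothelial cells. For Pdgfrb these levels were 0.599 and 1.13, 0.141 and 0.0209, and 0.0723 and 0.0381. The endothelial sums include unnamed cycling cells, of which the multinomial model named 53 vascular endothelial and 12 MatrixFB-2. These gave 6 of the 16 endothelial Pdgfra UMIs of Batch 2 and 4 of the 8 Pdgfrb UMIs of Batch 1. In each case 4 of them came from 1 cell. No mesenchymal value overlapped with the other tissues. In edgeR, Pdgfra was lower in epithelial than in mesenchymal cells (log2 difference -4.48, SE 0.45, adjusted p = 3.16e-05) and lower in endothelial cells (-5.28, SE 0.47, adjusted p = 2.06e-05). For Pdgfrb the edgeR differences were -4.13 (SE 0.66, adjusted p = 0.000735) and -4.19 (SE 0.64, adjusted p = 0.000668).

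Of the 5 members tested in each of these comparisons, 3 were called between epithelial and mesenchymal cells and all 5 between endothelial and mesenchymal cells. Of all 12122 genes tested, 32.7% and 26.7% were called. A gene that passes the filter on low counts through the tissue that holds it is likely to differ, so these counts describe the genes that could be tested, and Pdgfc could not. Immune cells held few UMIs of any member, at most 5 of Pdgfa and 8 of Pdgfb among 476 cells of Batch 2, the 8 all from the unnamed cluster with basophil and megakaryocyte genes, with Pdgfd at 0 in both batches (limit 0.0285 per 10000 in Batch 2).

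**Figure D2:**
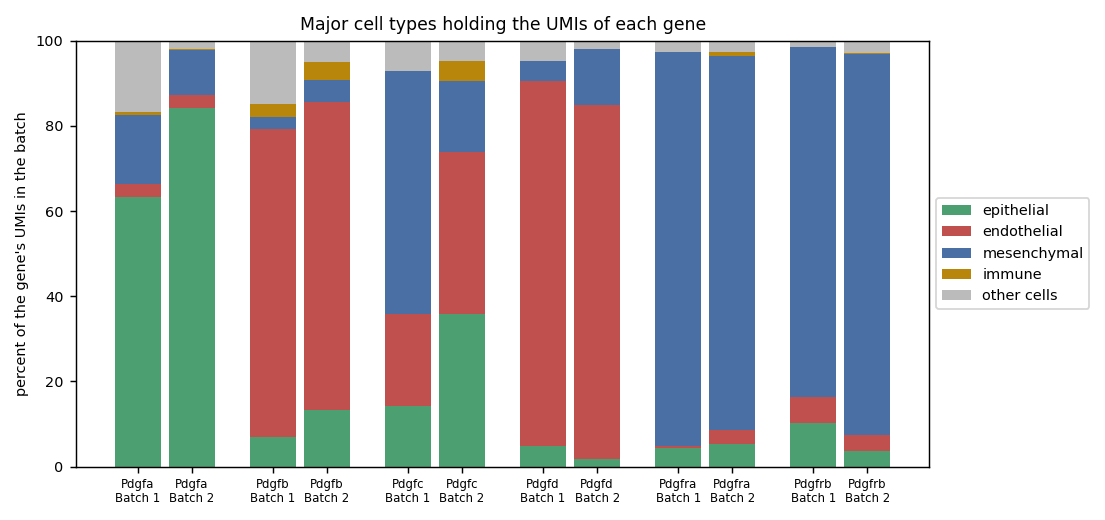
Percent of each gene's UMIs in a batch (y axis) that came from each major cell type, for every gene and batch (x axis); other cells are erythroid-like cells and unnamed clusters with heart muscle genes or of no clear type, while cycling cells count as endothelial and cells with basophil and megakaryocyte genes as immune. Epithelial cells give most of the Pdgfa UMIs (63.2% and 84.3%), endothelial cells most of the Pdgfb and Pdgfd UMIs, and mesenchymal cells over 80% of the UMIs of each receptor.

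Pdgfra, the receptor of PDGF-A, was highest in MyoFB-like cells, which were named from myofibroblast markers. Smooth muscle markers summed to 2.97 and 1.93 UMIs per 10000 in this class, against 31.0 and 26.6 in smooth muscle-like cells (Batch 1 and Batch 2). The MyoFB markers, however, summed to more in smooth muscle-like cells (133 and 144) than in MyoFB-like cells (76.1 and 90.5). The multinomial model named 155 smooth muscle-like cells MyoFB-2 and 116 Smooth Muscle, so MyoFB-like cells are a part of the cells with these markers. The Pdgfra level of MyoFB-like cells was 4.36 UMIs per 10000 in Batch 1 (3.16 to 5.85, 44 UMIs) and 3.73 in Batch 2 (3.08 to 4.48, 114 UMIs). MatrixFB-2-like cells followed with 1.40 (0.879 to 2.12) and 0.782 (0.484 to 1.20), MatrixFB-1-like cells with 0.741 (0.596 to 0.909) and 1.23 (1.09 to 1.38) and smooth muscle-like cells with 0.790 and 0.873. The MyoFB-like values lay above all of these in both batches, and the other 3 overlapped. Through their number, MatrixFB-1-like cells nevertheless held 49.5% and 55.8% of all Pdgfra UMIs.

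Between MyoFB-like and MatrixFB-1-like cells, Pdgfra differed by 1.72 on the log2 scale in edgeR (SE 0.44, adjusted p = 0.00721). DESeq2 gave an adjusted p of 0.12, and edgeR without the batch term 0.10. With class names from the multinomial model in place of the clusters, the mean level in MyoFB cells was 2.34 UMIs per 10000 instead of 4.04. The difference stayed past the threshold in edgeR (adjusted p = 0.03), but the authors' types behind those names were marked in part by Pdgfra. Pdgfra was detected in 37.7% and 37.8% of MyoFB-like cells, which became 23.4% and 18.7% after thinning. MatrixFB-1-like cells had it in 9.09% and 17.8%, and capillary-like cells in 0.233% and 0.429%, at median depths of 1210 and 1804 UMIs against 1076 and 1376 for MyoFB-like cells.

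Pericyte-like cells had 0 UMIs of Pdgfra in Batch 1, with a limit of 0.403 per 10000, and 1 UMI in Batch 2. The ratio of MatrixFB-1-like to pericyte-like levels over both batches was 37.7 with a counting interval of 6.72 to 1491 (edgeR adjusted p = 8.41e-05). Between both matrix fibroblast classes Pdgfra did not differ past the threshold (0.07, 95% interval -0.91 to 1.05, adjusted p = 0.982), and the sign differed between the batches.

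Pdgfrb, the receptor of PDGF-B on mural cells, was highest in pericyte-like cells, at 9.27 UMIs per 10000 in Batch 1 (7.21 to 11.7, 69 UMIs) and 9.38 in Batch 2 (8.28 to 10.6, 263 UMIs). These 62 and 146 cells gave 53.9% and 56.4% of all Pdgfrb UMIs. MatrixFB-1-like cells stood at 0.122 and 0.0784, and the edgeR difference was 6.25 (SE 0.56, adjusted p = 6.92e-12). The next class did not reach the pericyte-like level in either batch. Pdgfrb was detected in 67.7% (54.7 to 79.1) and 76.7% (69.0 to 83.3) of pericyte-like cells and, after thinning, in 46.8% and 44.5%. Capillary-like cells had it in 0.698% and 0.943%, at median depths of 1210 and 1804 UMIs against 1097 and 1706.

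Vascular mural-like cells, named from markers such as Acta2, differed between the mice. They held 0.766 UMIs of Pdgfrb per 10000 in Batch 1 (0.158 to 2.24, 3 UMIs in 23 cells) and 3.64 in Batch 2 (2.83 to 4.62, 68 UMIs in 85 cells). For Pdgfra the same cells had 1.02 in Batch 1 (4 UMIs) and 0 UMIs in Batch 2, with a limit of 0.161. The markers of MatrixFB-1 cells were higher in the Batch 1 cells of this class, as given above, and their part in the Pdgfra and Pdgfrb values was not tested. By the authors' types, the multinomial model named 82 vascular mural-like cells Pericyte-1 and 12 Pericyte-2, and 199 pericyte-like cells Pericyte-2. Under those names, both classes are thus largely pericytes. Pdgfrb was lower in vascular mural-like than in pericyte-like cells in both batches, and the edgeR difference was -1.77 (SE 0.50, adjusted p = 0.0301). This call was lost in DESeq2 (adjusted p = 0.36), without the batch term (0.22), at a mitochondrial limit of 5% (0.11) and without called doublets (0.053).

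Fibroblasts carried Pdgfrb at a lower level. MyoFB-like cells held 0.693 (0.279 to 1.43) and 1.08 (0.743 to 1.52), and MatrixFB-2-like cells 0.446 (0.179 to 0.919) and 0.857 (0.543 to 1.29), all above the MatrixFB-1-like values. The edgeR differences from MatrixFB-1-like cells were 2.95 (SE 0.61, adjusted p = 0.000681) and 2.76 (SE 0.63, adjusted p = 0.00404). For MatrixFB-2-like cells the call was lost in DESeq2 (adjusted p = 0.19), without the batch term (0.074) and at a mitochondrial limit of 5% (0.086). Smooth muscle-like cells held 0.351 and 0.356. In AT1-like cells of Batch 1, 7 of the 9 Pdgfrb UMIs came from 1 cell.

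**Figure D3:**
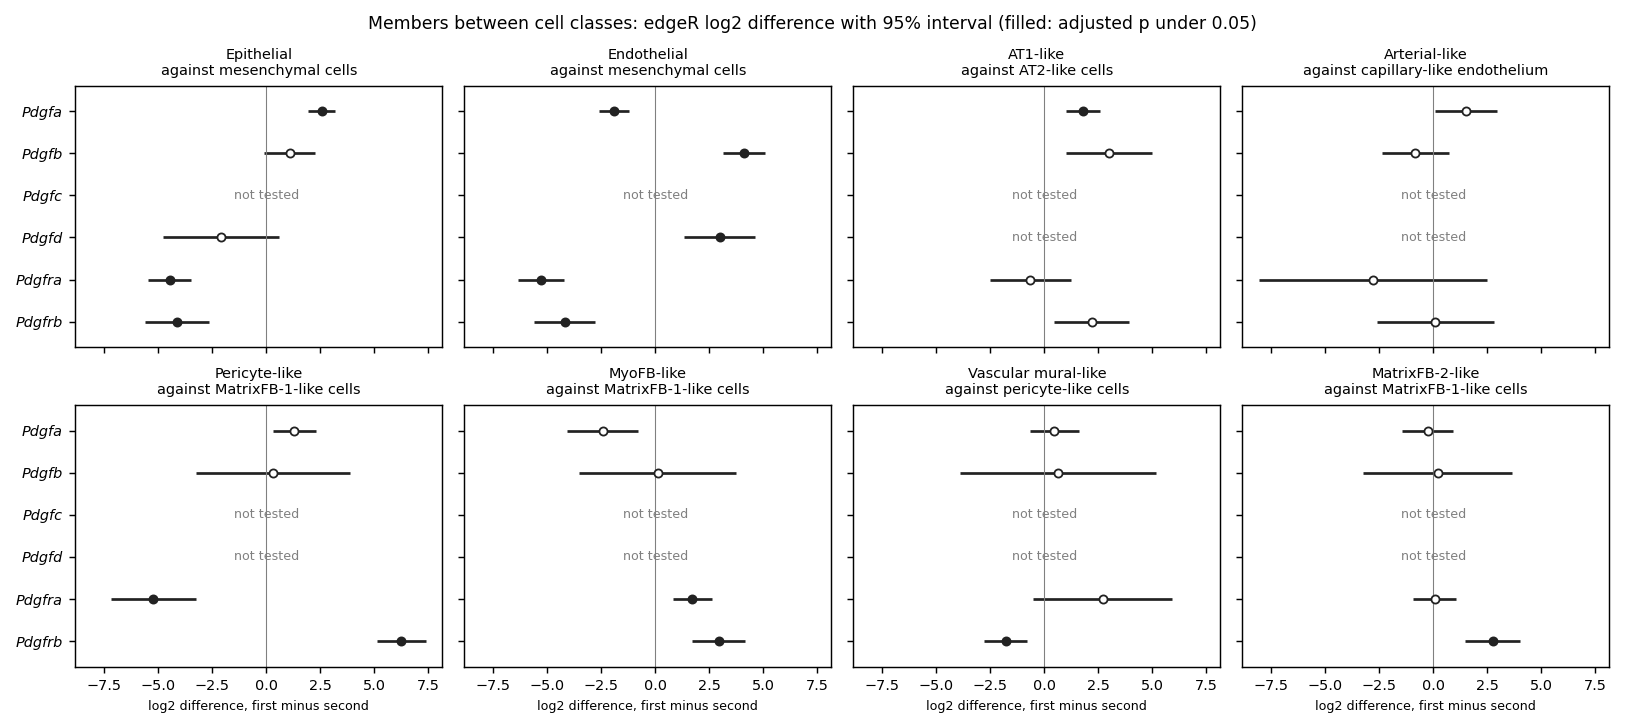
Log2 difference (x axis, first class minus second) of each member (y axis) in the 8 comparisons, from edgeR, with its 95% interval; filled points have an adjusted p under 0.05. The receptors lie to the left in both comparisons with mesenchymal cells, and Pdgfrb and Pdgfra lie on opposite sides between pericyte-like and MatrixFB-1-like cells.

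Over the class comparisons, 1 of the 4 members tested was called between AT1-like and AT2-like cells, where 7.29% of all 7773 genes tested were called, and 0 of 4 between arterial-like and capillary-like cells, where 1.83% were called. In that last comparison Pdgfa alone had an unadjusted p under 0.05 in edgeR (log2 difference 1.51, adjusted p = 0.523), and DESeq2 called none of the 4. Both receptors and neither ligand tested were called between pericyte-like and MatrixFB-1-like cells (9.84% of all genes) and between MyoFB-like and MatrixFB-1-like cells (7.14%). Pdgfrb alone was called between vascular mural-like and pericyte-like cells (3.49%) and between the matrix fibroblast classes (3.64%). Pdgfc and Pdgfd were not tested in these comparisons.

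The receptors were seldom found in the same cell. In Batch 1, 4 of 1184 mesenchymal cells had UMIs of both, 133 of Pdgfra only and 69 of Pdgfrb only. In Batch 2, 16 of 1962 cells had both, 316 Pdgfra only and 208 Pdgfrb only. The shares with both were 0.338% and 0.816%, and the product of the detection shares of both genes would give 8.45 and 37.9 cells. That product is taken over classes that hold different receptors, so a shortfall says nothing of cells within a class. Among MyoFB-like cells, 29 and 6 of 77 had Pdgfra and Pdgfrb in Batch 1, and 79 and 29 of 209 in Batch 2. MyoFB-like cells supplied 1 of the 4 and 11 of the 16 cells, which are 1.30% and 5.26% of that class. In pericyte-like cells, 42 of 62 and 111 of 146 had Pdgfrb only, none had Pdgfra only, and 1 cell of Batch 2 had both. At this depth a cell without a UMI may still express a gene, and doublets or free RNA can place both receptors under 1 barcode. Without called doublets the shares were 0.338% and 0.779%. Only 13 cells of Batch 1 were called, so this check could change little there. For Pdgfa and Pdgfra, 6 and 20 mesenchymal cells had both, and the product of their detection shares gives 6.94 and 21.7 cells. That product too is taken over unlike classes and says nothing of cells within a class.

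**Figure D4:**
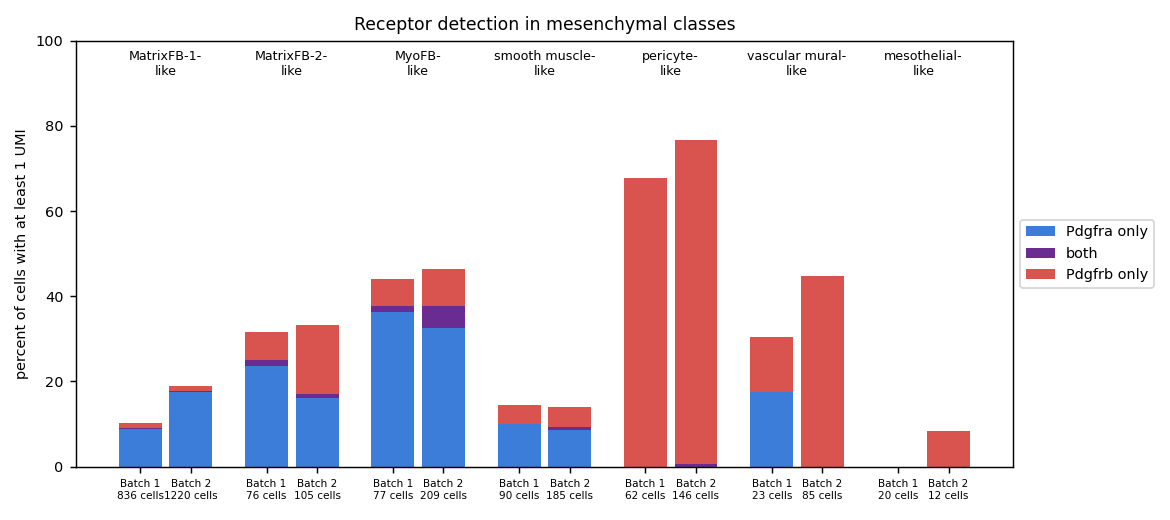
Percent of cells (y axis) with at least 1 UMI of Pdgfra only (blue), of both receptors (purple) or of Pdgfrb only (red) in each mesenchymal class and batch (x axis, with cell numbers). Pericyte-like bars are red but for 1 cell of Batch 2, MyoFB-like bars mainly blue with 1.30% and 5.26% of cells in purple, and the vascular mural-like bars differ between the batches.

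**Figure D5:**
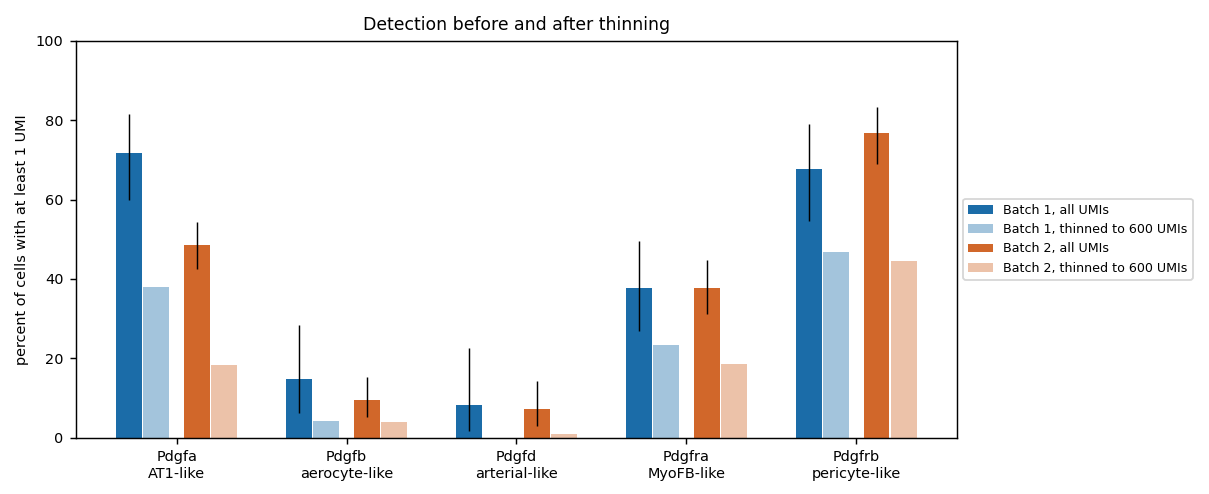
Percent of cells with at least 1 UMI (y axis) in the class with the highest level of each gene (x axis; Pdgfc, at 0 after thinning, is left out), before (solid) and after (pale) thinning each cell to 600 UMIs. Bars on the solid columns are exact binomial 95% intervals; Pdgfa in AT1-like cells goes from 71.6% and 48.5% to 37.8% and 18.4%, Pdgfrb in pericyte-like cells from 67.7% and 76.7% to 46.8% and 44.5%.

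The classes kept their rank between the mice for some members more than for others. Spearman's rho of the class levels between the batches was 0.836 for Pdgfa, 0.757 for Pdgfrb, 0.590 for Pdgfd, 0.517 for Pdgfra and 0.385 for Pdgfb over the 23 classes, which share their library and its depth within a batch. Classes at 0 weigh on these values. Across classes, Pdgfb and Pdgfd went together most among the ligands (Pearson's r of log2 levels 0.555 in Batch 1 and 0.642 in Batch 2), and Pdgfra with Pdgfrb gave 0.400 and 0.301.

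The genes whose class levels were most like those of a member were sought among 6049 genes, by the lower of the 2 batches' correlations over the 23 classes. For Pdgfrb these were Gucy1b3, a subunit of the receptor of nitric oxide (0.883 and 0.926), Heyl, Kcnk3, Ndufa4l2 and Ltbp2. For Pdgfra they were Agt, which encodes angiotensinogen (0.822 and 0.892), Gfra2, Dnm3os, Epha3 and Adh1. Agt, Heyl and Kcnk3 were among the markers used to name the MyoFB-like and mural classes. Pdgfa was most like 2200002D01Rik (0.820 and 0.844), Fads3, Plxnb1, Wwc1 and Krt19. Pdgfb was most like Sema7a (0.763 and 0.905), Scn3b, Unc45b, Ace and Rap1a, and Pdgfd like 9430020K01Rik (0.747 and 0.765), Acvrl1, Clec14a, Ly6f and Tubb2b. For Pdgfc the closest gene, Colec12, reached 0.700 and 0.557, ahead of Adamts5, Hhip, Cpe and Mmp2.

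Of 46 other genes of the PDGF pathway, 43 were tested between major cell types and 37 between classes. Between epithelial and mesenchymal cells 7 were higher in epithelial cells (17.6% of all genes were) and 10 in mesenchymal cells (15.1%), with a median log2 difference of -0.105 against -0.005 over all genes. Those highest above mesenchyme were St14, a membrane protease that can cleave PDGF-D (log2 difference 4.89, 0.282 and 0.2998 UMIs per 10000 in epithelium), Ptprj, a receptor phosphatase (2.47), and Spry1, an inhibitor of receptor tyrosine kinase signalling (1.75). Lower in epithelium were Cspg4, the NG2 proteoglycan of pericytes (-4.53), Lrp1, a partner of PDGFRB (-4.18), and Plat, the plasminogen activator that cleaves PDGF-C (-4.12).

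Against mesenchymal cells, 8 pathway genes were higher in endothelial cells (13.3% of all genes were) and 12 lower (13.4%), with a median log2 difference of -0.235 against -0.034 over all genes. S1pr1, a receptor of sphingosine phosphate, was higher by 4.76 (2.98 and 5.70 against 0.125 and 0.187 UMIs per 10000), Vav3 by 4.19 and Ptprj by 2.17. Lower in endothelium were Lrp1 (-5.51), Cspg4 (-4.25) and Thbs1, a matrix protein (-4.12).

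Within mesenchyme, pericyte-like cells exceeded MatrixFB-1-like cells in 4 pathway genes (4.75% of all genes), with Cspg4 (2.96 and 1.43 against 0.00814 and 0.131 UMIs per 10000, log2 difference 4.57), Plat (4.04) and the adaptor Nck2 (2.86) in front. They were lower in 4 (5.09%), led by Cd82 (-3.27), Nrp2 (-3.17) and Thbs1 (-2.19), and the median was -0.135 against -0.163 over all genes. MyoFB-like cells were higher than MatrixFB-1-like cells in 4 (3.05%), with Myc (3.82), Plat (3.32) and Cspg4 (2.84, from 0 in Batch 1 and 1.11 per 10000 in Batch 2), and lower in 3 (4.09%), Nrp2 (-2.92), Nrp1 (-1.89) and Cd82, which was at 0 in both batches and at least 7.0-fold lower against a floor of 3 UMIs over both batches. Here the median was -0.206 against -0.099 over all genes.

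Vascular mural-like cells were lower than pericyte-like cells in 3 pathway genes (1.81% of all genes), and no other pathway gene was called, where 1.67% of all genes were higher (median -0.266 against -0.048). Plat and Nck2 were at 0 in the mural class, at least 12.1-fold and 8.27-fold lower against that floor.

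AT1-like cells had more Sparc, a matrix protein that binds PDGF (log2 difference 2.38, 46.8 and 37.8 against 7.39 and 6.28 UMIs per 10000), and less Socs3 (-1.72) and Plcg1 (-1.48) than AT2-like cells, so that 1 pathway gene was higher (4.14% of all genes) and 2 were lower (3.15%), with a median of -0.371 against -0.074. MatrixFB-2-like cells also had more Sparc than MatrixFB-1-like cells (1.67) and less Pik3r1 (-1.59), 1 gene each way where 2.6% and 1.04% of all genes were called (median 0.132 against -0.079). All pathway differences named here had an adjusted p under 0.05 in edgeR. Of those named, DESeq2 did not call Socs3 and Plcg1 in AT1-like cells, Cspg4, Cd82 and Thbs1 in pericyte-like cells, Cspg4, Plat and Nrp1 in MyoFB-like cells, or Pik3r1 in MatrixFB-2-like cells. Between arterial-like and capillary-like cells, where 1.33% of all genes were higher and 0.502% lower, no pathway gene was called by edgeR (3 of 37 had an unadjusted p under 0.05) or by DESeq2.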

How the data were processed

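For each of the 2 batches the authors deposited raw UMI counts per gene and cell. They aligned the reads to mm10 with Bowtie2 2.2.7 and counted unique UMIs over exons with Drop-seq tools, keeping cells with at least 500 genes. Cells over 10% mitochondrial UMIs (1 of 2389 in Batch 1, 1940 of 7555 in Batch 2) were removed here. The members and gene lists were chosen with earlier results of these data known, and the scoring rule that names clusters was set after seeing the data.

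Cells were clustered by Leiden communities (1500 variable genes, 30 principal components, 12 neighbours within each batch, resolutions 1.5 and 2) without the members. Genes that vary with a member still shaped the classes. Doublets were called by Scrublet in 13 cells of Batch 1 (0.544%) and 118 of Batch 2 (2.10%) and kept in the main analysis. Alternative names came from a multinomial model built on the cell types that the authors list for 1998 cells of Batch 1. The members were left out of its profiles. The authors give Pdgfrb as a candidate marker of both pericyte types, and Pdgfra as one of their MyoFB types. Those names are therefore not independent of the receptors.

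Counts were summed by class and batch (46 sums, 7773 genes after filterByExpr) or by major type and batch (8 sums, 12122 genes), normalized by TMM and tested with edgeR 4.0.16 (R 4.3.3), Benjamini-Hochberg adjusted over all genes tested, with batch as the replicate block because the classes of a batch come from the same mouse (median correlation of deviations 0.131 for classes and 0.289 for major types). The block takes out the shift between the 2 mice. The p-values therefore measure how differences between classes vary over these 2 mice, with the spread pooled over all classes in the fit. The fit was checked on simulated counts with 200 genes changed between AT1-like and AT2-like cells. It found 90 of the 188 changed genes that were tested (47.9%), with 4 false calls among 94. The share found was 8.62% at a log2 change of 1, 57.8% at 2 and 72.7% at 3. Small differences can thus go uncalled. Named were the members, up to 3 pathway genes each way per comparison and the 5 genes most like each member (log2 of UMIs per 10000 plus 0.1, at least 100 UMIs in each batch). Python 3.11.15 with igraph 0.11.9 and leidenalg 0.10.2 and DESeq2 1.42.0 were also used. A pathway gene that the rule for named genes picks is not reported here. Alternatives are given in the closing section.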

Additional observations from a re-analysis of the deposited data

Results flagged for a closer look

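In Batch 2, 1940 cells lay above the mitochondrial limit and entered no comparison. Their median mitochondrial share was 12.9% and their median depth 1957 UMIs. All 6 members were present in them above the level of 3 UMIs, which is 0.006 per 10000. Pdgfa stood at 0.867 UMIs per 10000 (0.889 in the cells kept), Pdgfb at 0.0875 (0.108), Pdgfc at 0.0278 (0.0230), Pdgfd at 0.0099 (0.0291), Pdgfra at 0.255 (0.278) and Pdgfrb at 0.414 (0.256). The cell types of these cells were not assigned, so the part of their makeup in these levels was not tested.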

How the results depend on the processing

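The 15 member differences called by edgeR kept their direction under every alternative. All 15 stayed past the threshold with RLE size factors, without a filter on low counts and with names from the multinomial model. At a mitochondrial limit of 5% 13 did, without called doublets 14 and with DESeq2 11. The doublet setting took only 13 of 2388 cells from Batch 1, so it could change little there. The model names rest on types that the authors marked partly by the receptors, so they are no independent check of the receptor calls. Of the 7 between classes, all 7 held with only the compared classes in the fit. Without the batch as replicate block 11 of 15 held. The counts of genes called then fell to 2638 (from 3966) between epithelial and mesenchymal cells, 2046 (3240) between endothelial and mesenchymal, 202 (567) between AT1-like and AT2-like, 53 (142) between arterial-like and capillary-like, 421 (765) between pericyte-like and MatrixFB-1-like, 212 (555) between MyoFB-like and MatrixFB-1-like, 116 (271) between vascular mural-like and pericyte-like and 78 (283) between the matrix fibroblast classes. With only the compared classes in the fit, the counts for these last 6 comparisons were 1642, 494, 1246, 954, 414 and 666. Model names gave 1207 genes for AT1-like, 1066 for MyoFB-like and 819 for MatrixFB-2-like cells, a mitochondrial limit of 5% gave 66 for arterial-like, 449 for pericyte-like and 106 for vascular mural-like cells, and DESeq2 gave 81 for arterial-like cells. The causes of these shifts were not tested.

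Calls lost, as edgeR or DESeq2 log2 differences, were Pdgfa in AT1-like cells without the block (1.89), Pdgfd in endothelium with DESeq2 (3.04), Pdgfra in MyoFB-like cells without the block (1.75) and with DESeq2 (2.03), Pdgfrb in vascular mural-like cells without the block (-1.82), at 5% mitochondrial UMIs (-2.01), without doublets (-1.71) and with DESeq2 (-2.07), and Pdgfrb in MatrixFB-2-like cells without the block (2.74), at 5% (2.41) and with DESeq2 (2.77). Differences that were never called and changed sign were Pdgfra in AT1-like cells (0.73 without doublets, 1.32 with model names), Pdgfrb in arterial-like cells (-0.50 at 5%, -0.66 without doublets), Pdgfb in pericyte-like cells (-2.76 without doublets) and in MyoFB-like cells (-0.036 without the filter), Pdgfa in MatrixFB-2-like cells (0.53 with model names) and Pdgfra there (-0.155 without the filter, -0.001 at 5%, -0.038 without doublets, -0.35 with model names).

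Values of 1 batch alone carry no test and use log2 of UMIs per 10000 plus 0.1, which draws low genes toward 0. Against mesenchyme they ranged in epithelium from 1.67 to 2.64 for Pdgfa, -3.30 to -2.52 for Pdgfra and -3.35 to -1.54 for Pdgfrb. In endothelium they ranged from -1.44 to -1.21 for Pdgfa, 1.66 to 2.70 for Pdgfb, 0.70 to 1.31 for Pdgfd, -3.293 to -3.289 for Pdgfra and -3.15 to -2.02 for Pdgfrb. Against MatrixFB-1-like cells, pericyte-like cells gave -3.30 to -3.07 for Pdgfra and 5.40 to 5.73 for Pdgfrb, MyoFB-like cells 1.52 to 2.41 and 1.84 to 2.73, and MatrixFB-2-like cells 1.30 to 2.42 for Pdgfrb. Vascular mural-like cells gave -3.44 to -1.34 for Pdgfrb against pericyte-like cells, the lower value from Batch 1. Mean detection over the batches after thinning, and at 2 UMIs or more, was 28.1% and 35.1% for Pdgfa in AT1-like cells, 4.14% and 1.74% for Pdgfb in aerocyte-like cells, 0.515% and 1.90% for Pdgfd in arterial-like cells, 21.0% and 13.1% for Pdgfra in MyoFB-like cells and 45.6% and 42.5% for Pdgfrb in pericyte-like cells, and Pdgfc in venous-like cells was at 0% after thinning. The mean Pdgfra level in MyoFB cells was 2.34 UMIs per 10000 with model names, the Pdgfrb level of pericyte-like cells averaged over cells was 9.82, and the mesenchymal share with both receptors was 0.144% after thinning. Single-batch values of levels and shares were added after seeing the data. No model names were available for arterial-like cells. At this depth, single UMIs decide the values of Pdgfc and Pdgfd.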
